A study of Mus musculus with 6 samples.

Results

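The genes described are the 3 TGF-beta ligand genes TGFB1, TGFB2 and TGFB3, the 4 genes of latent TGF-beta binding proteins LTBP1, LTBP2, LTBP3 and LTBP4, and TGFBI, a matrix protein gene named for its induction by TGF-beta. They were taken by exact symbol, which gave 8 of the 23284 gene symbols in the expression table. RNA was sequenced from 6 tumours formed under the skin of athymic nude mice by STS26T, a human cell line of a malignant peripheral nerve sheath tumour. In the 3 anti-ENG tumours the hosts had received TRC105 and M1043, antibodies to human and mouse endoglin (ENG), and in the 3 IgG control tumours an isotype control IgG. Each arm was dosed at 10 mg/kg, 2 times a week by the intraperitoneal route, for 3 weeks. All tumours come from 1 line in hosts that lack a thymus. Age and sex of the hosts are not given in the sources used here. Values are FPKM (sequenced fragments scaled by library size and by transcript length), so that levels of different genes can be set side by side within a tumour.

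TGF-beta is secreted in an inactive form. The protease furin cuts the precursor, but the propeptide stays folded around the mature growth factor and forms the small latent complex. LTBP1, LTBP3 and LTBP4 bond to the propeptide and carry it to fibrillin and fibronectin fibres of the matrix, whereas LTBP2 shares their build but does not bind latent TGF-beta. Integrins that contain the alpha-v chain pull the factor free from the propeptides of TGF-beta1 and TGF-beta3, which hold an RGD motif that the propeptide of TGF-beta2 lacks. Endoglin, the target of the antibodies, is a co-receptor that binds TGF-beta1 and TGF-beta3 together with the signalling receptors, and binds TGF-beta2 poorly.

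The FPKM values summed to between 410786 and 475146 per tumour, and 12358 to 12624 genes reached 1 FPKM in each. Taking the value of 1 fragment in low genes, the depth relative to IgG control 1 was 1.14 to 1.46 in the anti-ENG tumours and 1.10 and 1.18 in the other IgG control tumours. Total depth is unknown. The first principal component, with 44.6% of the variance, had anti-ENG 1 at one end (39.8) and IgG control 1 at the other (-31.9). The remaining 4 tumours lay between -7.51 and 6.19, so results are also given without these 2 tumours where they move. Of the 6 Schwann and neural crest markers, 4 stayed under 1 FPKM in all 6 tumours. SOX10 did not exceed 0.188 FPKM and S100B did not exceed 0.104 FPKM, so these defining genes of the nerve sheath lineage were at or near 0. The symbols are human while the labels give mouse as the organism, and host RNA can add to a value only through mouse reads that matched the human reference. How far it did was not tested. In a bulk tumour, fewer cells that express a gene and less RNA per cell cannot be told apart.

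The 8 genes spanned the range from one of the most abundant transcripts to one near the lower limit. TGFBI averaged 1148 FPKM over the 6 tumours and ranked 33 among the 12586 genes tested, those that averaged 1 FPKM or more. LTBP3 averaged 152 FPKM, TGFB1 109, LTBP1 37.5, LTBP4 29.9, LTBP2 10.4, TGFB3 5.87 and TGFB2 1.70 FPKM. TGFB1 was thus above 95.1% of these genes, and TGFB2 above 6.8%. Most neighbours in this order had separate ranges, but 2 pairs of neighbours overlapped. LTBP3 exceeded TGFB1 in 5 of 6 tumours, by 1.24 to 1.85 times, and lay below it in anti-ENG 1 at 0.795 of its level. LTBP1 exceeded LTBP4 in 6 of 6 tumours, by 1.04 to 1.51 times, although their ranges overlapped between tumours. TGFB3 and TGFB2 had separate ranges but came within 1.04 times of each other in anti-ENG 3.

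**Figure D1:**
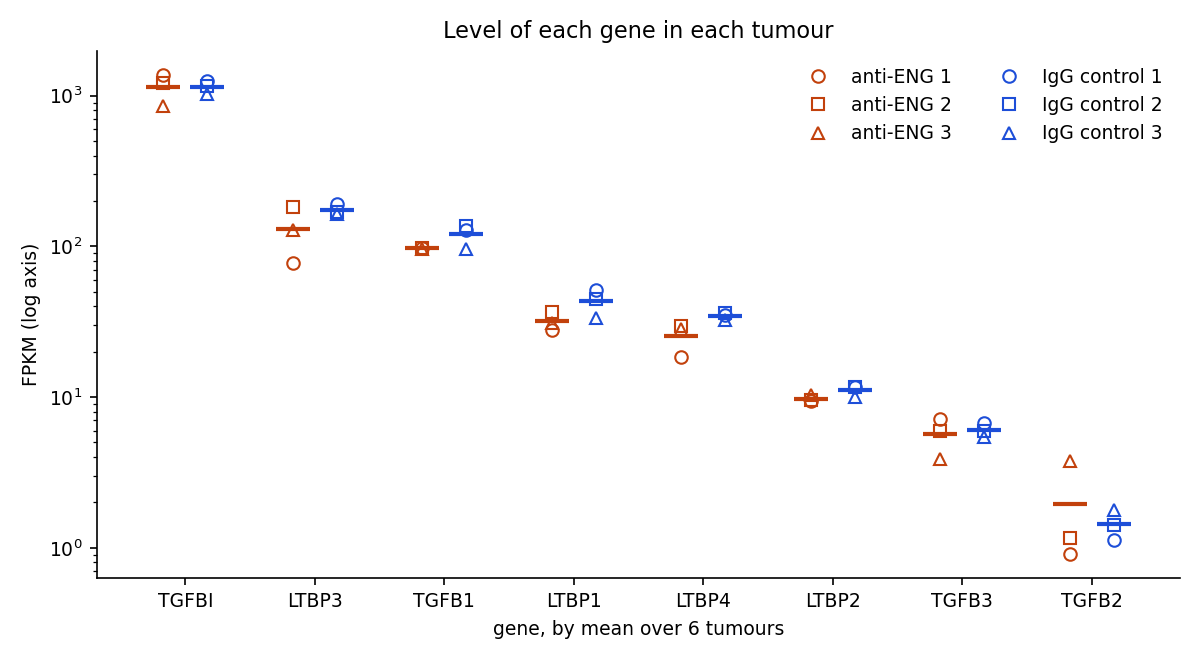
FPKM on a log axis for the 8 genes, ordered by mean over 6 tumours; each symbol is a tumour, anti-ENG in red on the left and IgG control in blue on the right of each gene, and bars are group means (n = 3 each). TGFBI lies between 860.0 and 1378 FPKM, and TGFB2 between 0.911 and 3.76 FPKM.

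Among the ligand genes TGFB1 made up nearly all of the ligand RNA in every tumour. Its share of the summed FPKM of the 3 ligands was 92.3%, 93.3% and 92.6% in anti-ENG 1, 2 and 3, against 94.2%, 94.9% and 93.1% in IgG control 1, 2 and 3. The lowest IgG control share lay inside the range of the anti-ENG tumours. The mean was 92.7 ± 0.488% in the anti-ENG group and 94.0 ± 0.917% in the IgG control group (SD, n = 3 each), a difference of -1.32 percentage points (exact two-sided permutation p = 0.2, 0.9 adjusted over 9 balance measures). With 3 tumours against 3 this test cannot give a p under 0.1.

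TGFB3 followed with 6.82%, 5.63% and 3.78% in anti-ENG 1, 2 and 3, against 4.98%, 4.15% and 5.23% in IgG control 1, 2 and 3. TGFB2 had 0.862%, 1.11% and 3.64% in anti-ENG 1, 2 and 3, against 0.830%, 0.983% and 1.72% in IgG control 1, 2 and 3. TGFB3 exceeded TGFB2 in 6 of 6 tumours, but the gap varied. It was 7.91 times in anti-ENG 1 and 1.04 times in anti-ENG 3, against 3.04 to 5.99 times in the IgG control tumours. The group means differed by 0.624 percentage points for TGFB3 (exact permutation p = 0.5, adjusted p = 0.9) and by 0.693 for TGFB2 (exact permutation p = 0.6, adjusted p = 0.9). These differences were smaller than the SD of the anti-ENG group, 1.53 and 1.54 points. The TGFB2 difference became -0.19 without anti-ENG 3, and the TGFB3 difference -0.080 without anti-ENG 1.

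Among the latent binding protein genes LTBP3 was the main transcript, with 58.2%, 70.6% and 64.9% of their summed FPKM in anti-ENG 1, 2 and 3, against 66.2%, 64.8% and 68.2% in IgG control 1, 2 and 3. The shares of LTBP1 ran from 14.2 to 20.9% in the anti-ENG tumours and from 14.1 to 17.7% in the IgG control tumours. LTBP4 held 11.5 to 14.2% in anti-ENG and 12.0 to 13.8% in IgG control tumours, and LTBP2 3.70 to 7.09% in anti-ENG and 4.04 to 4.44% in IgG control tumours. All 4 shares overlapped between the groups, and their exact permutation p values were 0.4 to 0.9, each 0.9 after adjustment. In anti-ENG 1 the LTBP3 share was the lowest of the 6 tumours while its LTBP1 and LTBP2 shares were the highest. Without anti-ENG 1 the difference of the LTBP3 share was 1.365 percentage points, in place of -1.815, and that of the LTBP1 share was -1.36, in place of 0.622.

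The carriers that bind latent TGF-beta outweighed the ligands in RNA. The summed FPKM of LTBP1, LTBP3 and LTBP4 was 124, 248 and 189 in anti-ENG 1, 2 and 3, against 279, 250 and 229 in IgG control 1, 2 and 3. Summed ligand FPKM was 106, 105 and 103 in anti-ENG 1, 2 and 3, against 136, 144 and 104 in IgG control 1, 2 and 3. The log2 ratio of the carrier sum to the ligand sum was 0.23, 1.24 and 0.87 in anti-ENG 1, 2 and 3, against 1.03, 0.79 and 1.14 in IgG control 1, 2 and 3. The groups overlapped, with a difference of means of -0.21 (exact permutation p = 0.7, adjusted p = 0.9) that became 0.063 without anti-ENG 1.

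**Figure D2:**
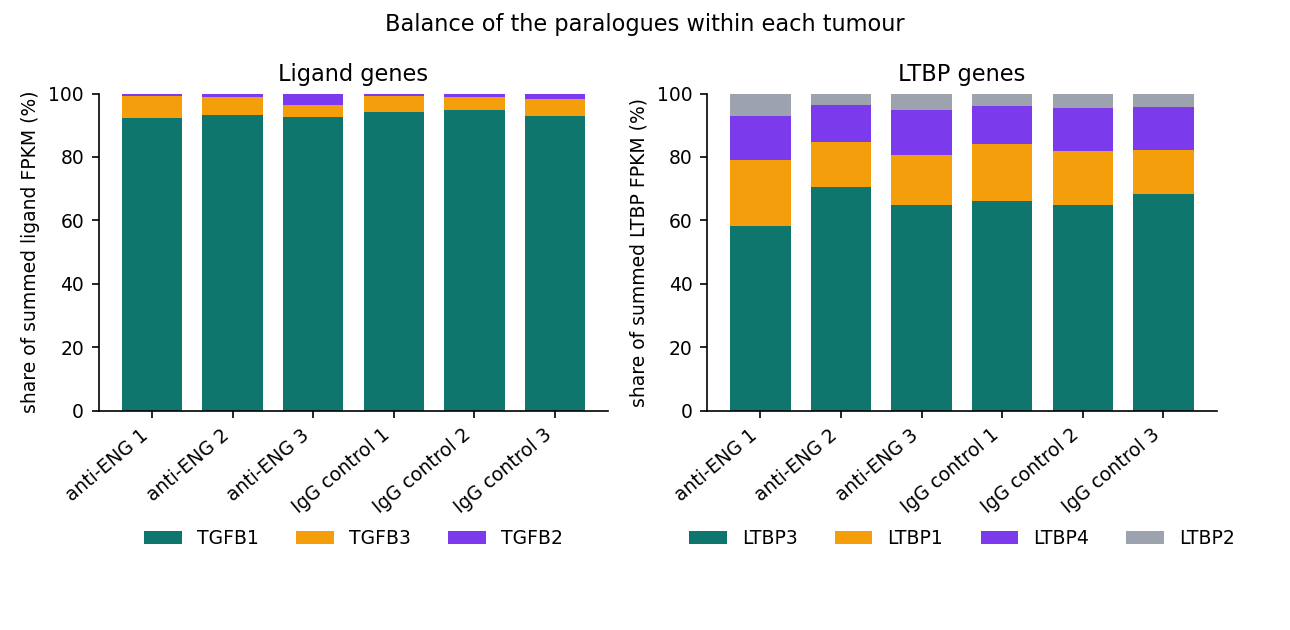
Stacked bars show, for each tumour, the share (%) of TGFB1, TGFB3 and TGFB2 in the summed ligand FPKM on the left and of LTBP3, LTBP1, LTBP4 and LTBP2 in the summed LTBP FPKM on the right. TGFB1 takes 92.3 to 94.9% in every tumour, and the LTBP3 share is lowest, 58.2%, in anti-ENG 1.

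The comparison of the groups asks whether blocking endoglin shifted the RNA of the ligands and their carriers. No member passed the adjusted threshold of 0.05 in limma, nor did any gene of the table (0% of 12586 tested). The smallest adjusted p of any gene was 0.529. At an unadjusted p under 0.05 there was 1 of the 8 members, LTBP4, against 9.17% of all genes tested. In 1 of 8 members, again LTBP4, no anti-ENG tumour overlapped with the IgG control range, against 17.3% of all genes. The log2 fold change was below 0 in 7 of 8 members, TGFB2 being the exception, against 48.8% of all genes. The median of the 8 was -0.23, and that of all genes 0.0065. The members had been chosen with results of these data known, so these counts describe and do not test them.

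TGFB1 had 97.6, 98.3 and 95.6 FPKM in anti-ENG 1, 2 and 3, against 128, 137 and 96.4 FPKM in IgG control 1, 2 and 3. The anti-ENG tumours lay close together and IgG control 3 lay among them, so the higher IgG control mean came from the other 2 tumours. The means were 97.2 ± 1.37 and 121 ± 21.3 FPKM in the anti-ENG and IgG control groups (SD, n = 3 each). This gave a log2 fold change of -0.29 with a 95% interval from -0.64 to 0.058 (limma adjusted p = 0.5425). It was -0.19 without IgG control 2 and -0.44 without IgG control 3, where the groups no longer overlapped, beside 26.8% of all genes. The groups also did not overlap after equal-sum, upper quartile, quantile or cyclic loess scaling, beside 14.6 to 17.7% of all genes. The adjusted threshold was not passed.

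TGFB2 had 0.911, 1.17 and 3.76 FPKM in anti-ENG 1, 2 and 3, against 1.13, 1.42 and 1.78 FPKM in IgG control 1, 2 and 3. The anti-ENG group held both the lowest and the highest value. The log2 fold change was 0.15 (interval -0.66 to 0.97, limma adjusted p = 0.876) and turned to -0.26 without anti-ENG 3. At this level the log2(FPKM + 1) scale understates ratios: the highest tumour exceeded the lowest by 4.13 times in FPKM.

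TGFB3 had 7.20, 5.93 and 3.91 FPKM in anti-ENG 1, 2 and 3, against 6.76, 6.00 and 5.42 FPKM in IgG control 1, 2 and 3. The 2 extremes were again anti-ENG tumours, with the opposite order to TGFB2. For TGFB3 the log2 fold change was -0.11 (interval -0.58 to 0.36, limma adjusted p = 0.847) and became 0.10 without anti-ENG 3.

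All 4 latent binding protein genes had lower means in the anti-ENG tumours, with a median log2 fold change of -0.43, and none passed the threshold. LTBP4 had 18.4, 29.7 and 28.4 FPKM in anti-ENG 1, 2 and 3, against 34.8, 36.1 and 32.3 FPKM in IgG control 1, 2 and 3. All anti-ENG values lay below all IgG control values. The log2 fold change was -0.45 (interval -0.88 to -0.016, limma unadjusted p = 0.0438, adjusted p = 0.529). Without anti-ENG 1 it was -0.24, and the groups did not overlap, beside 23.2% of all genes in that setting.

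LTBP3 had 77.5, 182 and 129 FPKM in anti-ENG 1, 2 and 3, against 192, 170 and 163 FPKM in IgG control 1, 2 and 3. Anti-ENG 2 lay within the IgG control range and anti-ENG 1 far under it. The means were 130 ± 52.3 FPKM in the anti-ENG group and 175 ± 15.3 in the IgG control group (SD, n = 3 each). LTBP3 thus had a log2 fold change of -0.51 (interval -1.17 to 0.15, limma adjusted p = 0.555), and -0.18 without anti-ENG 1.

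LTBP1 had 27.8, 36.5 and 31.2 FPKM in anti-ENG 1, 2 and 3, against 51.5, 44.5 and 33.6 FPKM in IgG control 1, 2 and 3. The highest anti-ENG tumour passed the lowest IgG control tumour, so the groups overlapped by 1 tumour. The log2 fold change was -0.42 (interval -0.84 to 0.0021, limma adjusted p = 0.529), and -0.28 without IgG control 1. LTBP2, which does not carry TGF-beta, had the smallest SD of log2(FPKM + 1) over the 6 tumours of the 8 members, 0.13. It lay between 9.44 and 10.3 FPKM in the anti-ENG tumours and between 10.0 and 11.7 in the IgG control tumours. Its log2 fold change was -0.17 (interval -0.43 to 0.092, limma adjusted p = 0.596).

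Anti-ENG 1 held the lowest value of all 4 LTBP genes, and IgG control 1 the highest of LTBP1, LTBP2 and LTBP3. Without both tumours the 4 log2 fold changes were still below 0 and their median was -0.15, with 38% of all genes then not overlapping between the 2 tumours left in each group. Most fibroblast markers were lower in the anti-ENG group too, but their summed FPKM overlapped between the groups. Of the 7 markers 6 had lower estimates, and their summed FPKM was 214 to 473 in the anti-ENG tumours against 382 to 753 in the IgG control tumours, with 0 of 7 at 0. Their largest contributor was COL3A1, a collagen of loose connective tissue. It had 109, 208 and 305 FPKM in anti-ENG 1, 2 and 3, against 479, 386 and 212 in IgG control 1, 2 and 3. The groups overlapped, and the 2 extremes were anti-ENG 1 and IgG control 1. The part of these markers in the LTBP values was not tested. Whether marker RNA came from tumour or host cells was not tested. Among markers of other cell types, the platelet genes PPBP and GP9 were at 0 in all 6 tumours. The platelet list summed to at most 1.07 FPKM in anti-ENG and 1.33 in IgG control tumours. The 8 leukocyte and macrophage markers summed to 75.5 to 102 FPKM in anti-ENG tumours against 63.8 to 122 in IgG control tumours, with CD68 as the largest contributor and 4 of 8 under 1 FPKM throughout. None of the 8 was at 0 in all tumours, but the pan-leukocyte gene PTPRC reached at most 1.13 FPKM. The 6 endothelial markers summed to 2.64 to 4.37 FPKM in anti-ENG and 2.47 to 4.84 in IgG control tumours, with 4 of 6 under 1 FPKM throughout and 0 of 6 at 0 in all tumours.

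**Figure D3:**
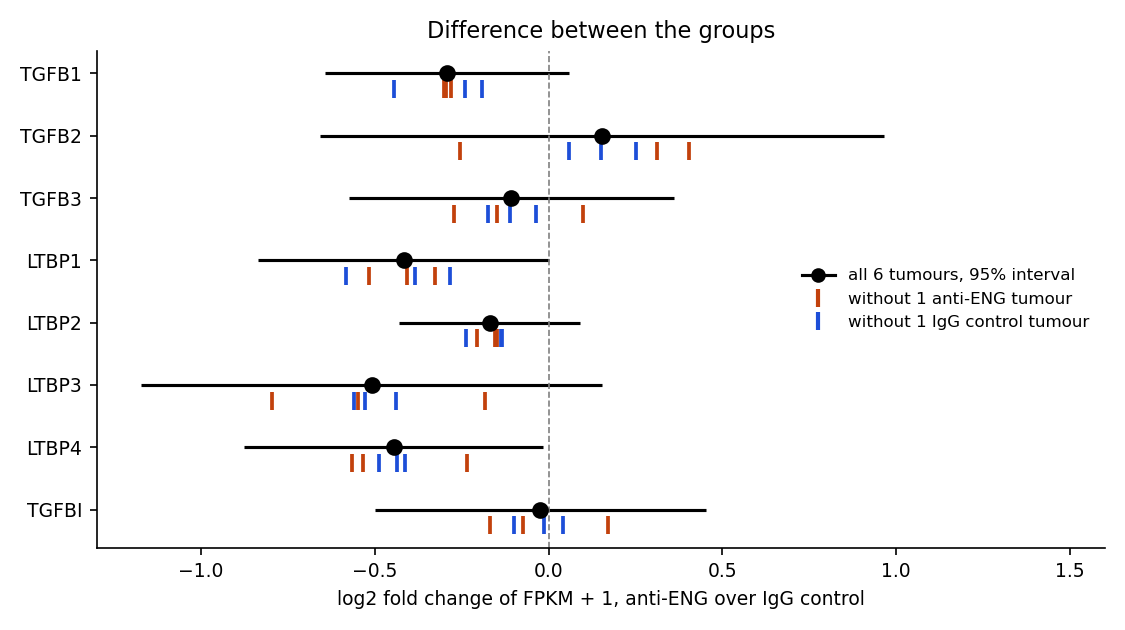
Log2 fold change of FPKM + 1, anti-ENG over IgG control, for the 8 genes; black points and lines are the limma estimate and its 95% interval over all 6 tumours, and ticks under them are the estimates without 1 tumour (red: an anti-ENG tumour left out; blue: an IgG control tumour). The interval reaches 0 or beyond in all genes but LTBP4, and without 1 tumour the LTBP3 estimate runs from -0.79 to -0.18 and that of TGFB2 from -0.26 to 0.40.

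TGFBI, whose product lies in the matrix and binds collagens and integrins, had 1378, 1206 and 860.0 FPKM in anti-ENG 1, 2 and 3, against 1251, 1162 and 1032 FPKM in IgG control 1, 2 and 3. The anti-ENG group held both extremes and the group means, 1148 FPKM each, differed by -0.503 FPKM. The SD was 264 FPKM in the anti-ENG and 110 FPKM in the IgG control group (n = 3 each). The log2 fold change was -0.023 (interval -0.50 to 0.45, limma adjusted p = 0.9705). This transcript is abundant and its estimate shifted with the scaling, to -0.33 after cyclic loess and -0.32 after quantile normalization, still short of the threshold. Relative to the ligands the log2 ratio of TGFBI to summed ligand FPKM was 3.70, 3.52 and 3.06 in anti-ENG 1, 2 and 3, against 3.20, 3.01 and 3.32 in IgG control 1, 2 and 3 (difference 0.25, exact permutation p = 0.3, adjusted p = 0.9). This difference was 0.11 without anti-ENG 1, 0.43 without anti-ENG 3 and 0.17 without IgG control 2.

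Across the 6 tumours the members did not share 1 profile. Anti-ENG 1 was the lowest tumour for 5 members (TGFB2 and the 4 LTBP genes) and the highest for TGFB3 and TGFBI. Anti-ENG 3 was the lowest for TGFB1, TGFB3 and TGFBI and the highest for TGFB2. None of the 8 members had its lowest value in an IgG control tumour. The share of all genes with that pattern was not computed, so this count only describes the members. The SD of log2(FPKM + 1) over the 6 tumours was largest for LTBP3 at 0.48 and TGFB2 at 0.48, and smallest for LTBP2 at 0.13.

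**Figure D4:**
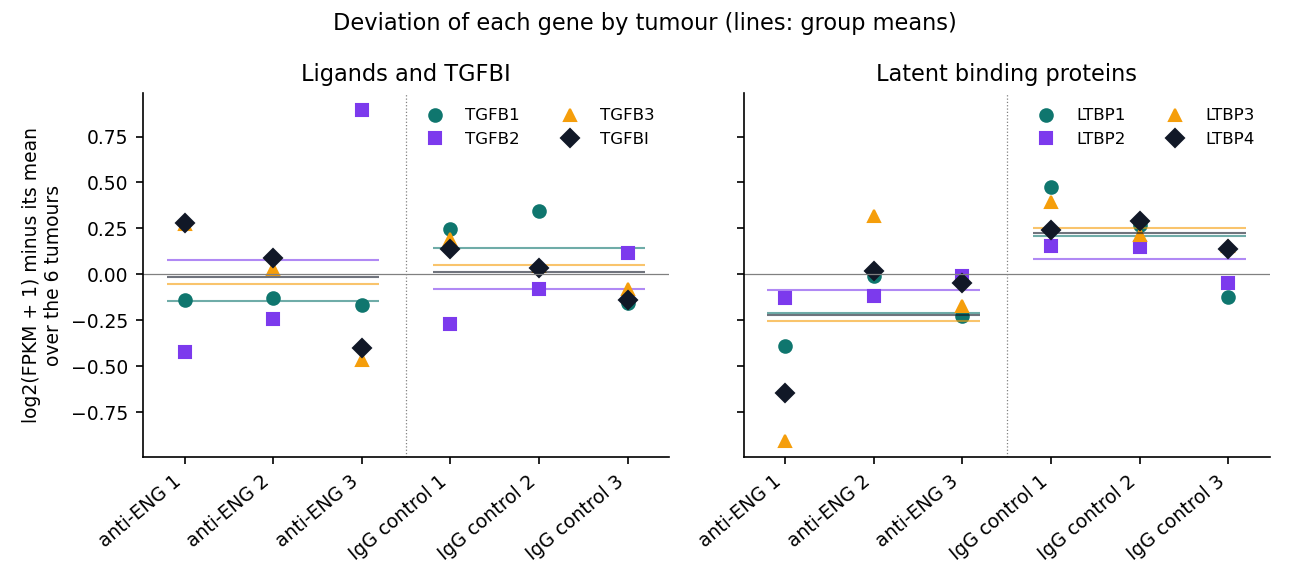
Deviation of log2(FPKM + 1) from its mean over the 6 tumours, for the ligands and TGFBI on the left and the LTBP genes on the right; anti-ENG tumours stand left of the dotted line, and thin lines are group means (n = 3 each). The LTBP genes are all at their lowest in anti-ENG 1, where TGFB3 and TGFBI are at their highest.

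Likeness was measured as the root mean square difference between profiles of log2(FPKM + 1), each centred on its mean over the 6 tumours. Unnamed loci, antisense transcripts, pseudogenes and small RNAs were passed over, so a nearer profile may exist among them. The profiles nearest to that of TGFBI were those of the RNA helicase gene DDX19B (0.033), CCDC115 (0.036) and CENPBD1 (0.047). CCDC115, for instance, had 18.3, 15.5 and 10.4 FPKM in anti-ENG 1, 2 and 3, against 15.5, 15.1 and 12.7 FPKM in IgG control 1, 2 and 3. Nearest to TGFB1 were FAM8A1 (0.069), the zinc finger gene ZNF219 (0.077) and EGFL8 (0.078). Nearest to LTBP3 were HEXDC (0.071), the protocadherin gene PCDHGA11 (0.090) and TRANK1 (0.11). For TGFB2, near the lower limit, the closest were the amino acid transporter gene SLC43A1 (0.15), MTL5 (0.16) and the nuclear pore gene NUP210 (0.16). No other member was among these 12 genes. With 6 tumours and 12586 genes, close profiles arise easily, and these are given as a description.

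The other genes of the pathway were described in 7 lists with 67 genes, of which 54 averaged 1 FPKM or more and were tested. Of the 54 tested genes, 0 passed the adjusted threshold, 47 had lower estimates in the anti-ENG tumours and 7 higher. LRRC32 and ADAMTSL4, counted among the 47, averaged under 1 FPKM in the anti-ENG group and passed the filter only through the IgG control group. Their lower estimates are therefore tied to the filter. The groups did not overlap in 4 of the 54, ADAMTSL4 among them, beside 17.3% of the 12586 genes in the test. The median log2 fold change of the 54 was -0.21, against 0.0065 over all genes tested. Without IgG control 1 the number with lower estimates was 33 of 54, without anti-ENG 1 it was 38, and without both it was 23, with a median of 0.036. In the matrix anchor list alone, 5 of 5 tested genes kept lower estimates without both.

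Of the genes that process, dock or crosslink the latent complex, 6 of 9 were tested and 6 had lower estimates (median -0.30; -0.061 without IgG control 1, -0.090 without anti-ENG 1 and 0.083 without both). FURIN, the convertase that cuts the TGF-beta precursor, had means of 26.2 and 27.5 FPKM in the anti-ENG and IgG control groups. LRRC32 (GARP), which holds latent TGF-beta at the cell surface, had 0.0770, 0.536 and 0.985 FPKM in anti-ENG 1, 2 and 3, against 4.71, 0.526 and 0.692 FPKM in IgG control 1, 2 and 3. Its log2 fold change of -0.72 (limma adjusted p = 0.619) came with 1 high tumour, IgG control 1. LRRC32 passed the filter of 1 FPKM only through that tumour, so its lower estimate, counted among the 6, is tied to the filter. The related docking gene LRRC33 had -0.50 (limma adjusted p = 0.578), with 9.12 FPKM in IgG control 1 and 4.59 to 4.81 in the other IgG control tumours. BMP1, a protease that cuts LTBP1, had -0.19 (limma adjusted p = 0.658).

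Of the genes that release TGF-beta from the complex, 10 of 12 were tested and 10 had lower estimates (median -0.35; -0.24 without IgG control 1, -0.12 without anti-ENG 1 and 0.033 without both). ITGB3, an integrin beta chain that can pair with alpha-v, had 8.38, 7.54 and 8.47 FPKM in anti-ENG 1, 2 and 3, against 14.5, 8.64 and 14.7 FPKM in IgG control 1, 2 and 3. The groups did not overlap, though IgG control 2 came close (log2 fold change -0.54, limma adjusted p = 0.529). MMP14, a membrane protease, had 121, 171 and 253 FPKM in anti-ENG 1, 2 and 3, against 569, 289 and 204 FPKM in IgG control 1, 2 and 3. Its groups overlapped (log2 fold change -0.89, limma adjusted p = 0.529). PLAT, the tissue plasminogen activator gene, had means of 10.1 and 14.8 FPKM in the anti-ENG and IgG control groups (limma adjusted p = 0.530). ITGB6, whose chain forms the best known activator in epithelia, was not tested, with a mean of 0.574 FPKM in anti-ENG and 0.585 in IgG control tumours.

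Of the matrix anchors of the latent complex, 5 of 10 were tested and 5 had lower estimates (median -0.45; -0.11 without IgG control 1 and anti-ENG 1). FN1, the fibronectin gene, had 232, 401 and 479 FPKM in anti-ENG 1, 2 and 3, against 513, 467 and 477 FPKM in IgG control 1, 2 and 3. Only anti-ENG 1 and 2 lay under the IgG control range (log2 fold change -0.45, limma adjusted p = 0.566). MFAP2, a microfibril protein gene, had 32.6, 41.2 and 30.6 FPKM in anti-ENG 1, 2 and 3, against 104, 71.2 and 35.9 FPKM in IgG control 1, 2 and 3 (log2 fold change -0.88, limma adjusted p = 0.529). ADAMTSL4, a fibrillin-binding protein gene, did not overlap between groups, with means of 0.826 and 1.43 FPKM in the anti-ENG and IgG control groups (limma adjusted p = 0.529). ADAMTSL4 passed the filter of 1 FPKM only through the IgG control group, so its lower estimate is tied to the filter. FBN1, the fibrillin to which LTBP1 and LTBP4 attach, had means of 18.0 FPKM in anti-ENG and 20.7 in IgG control tumours.

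Of the proteoglycan genes whose products bind TGF-beta, DCN (decorin) and BGN (biglycan) were tested. DCN had 4.62, 7.87 and 14.9 FPKM in anti-ENG 1, 2 and 3, against 12.9, 48.5 and 22.3 FPKM in IgG control 1, 2 and 3 (log2 fold change -1.45, limma adjusted p = 0.529). The groups overlapped, and IgG control 2 stood highest. BGN had a log2 fold change of -0.13 (limma adjusted p = 0.921).

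Of the receptor genes 4 of 5 were tested, and 3 had lower estimates. TGFBR1, the signalling kinase receptor, had 19.4, 18.5 and 19.4 FPKM in anti-ENG 1, 2 and 3, against 27.3, 20.7 and 19.7 FPKM in IgG control 1, 2 and 3. The groups did not overlap, but IgG control 3 lay just above the highest anti-ENG tumour (log2 fold change -0.22, limma adjusted p = 0.593). TGFBR2, the receptor that captures the ligand, had 0.11 (limma adjusted p = 0.807). ENG had 15.5, 29.5 and 26.7 FPKM in anti-ENG 1, 2 and 3, against 41.0, 23.9 and 22.1 FPKM in IgG control 1, 2 and 3 (log2 fold change -0.26, limma adjusted p = 0.751). The antibodies act on the protein, so the ENG transcript does not check the treatment. ACVRL1, the receptor that pairs with endoglin in endothelium, did not exceed 0.0287 FPKM. Without IgG control 1 and without anti-ENG 1, each alone, 1 of the 4 receptor genes had a lower estimate.

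Among the SMAD genes and intracellular inhibitors 9 of 11 had lower estimates (median -0.12; 3 of 11 without IgG control 1 and anti-ENG 1). The genes of smallest p were SKI at -0.29 (limma adjusted p = 0.585) and SKIL at -0.29 (limma adjusted p = 0.606), which repress SMAD transcription, and the ubiquitin ligase gene SMURF2 at 0.22 (limma adjusted p = 0.590). Of the SMAD2/3 target genes 12 of 16 had lower estimates (median -0.19; 7 of 16 and a median of 0.023 without IgG control 1). ADAM19, a membrane metalloprotease gene, had 32.7, 38.5 and 27.7 FPKM in anti-ENG 1, 2 and 3, against 48.9, 45.4 and 41.2 FPKM in IgG control 1, 2 and 3. Its groups did not overlap (log2 fold change -0.45, limma adjusted p = 0.529). The collagen I genes COL1A1 and COL1A2 had -0.79 (limma adjusted p = 0.543) and -1.03 (limma adjusted p = 0.579), with anti-ENG 1 the lowest tumour for each.

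**Figure D5:**
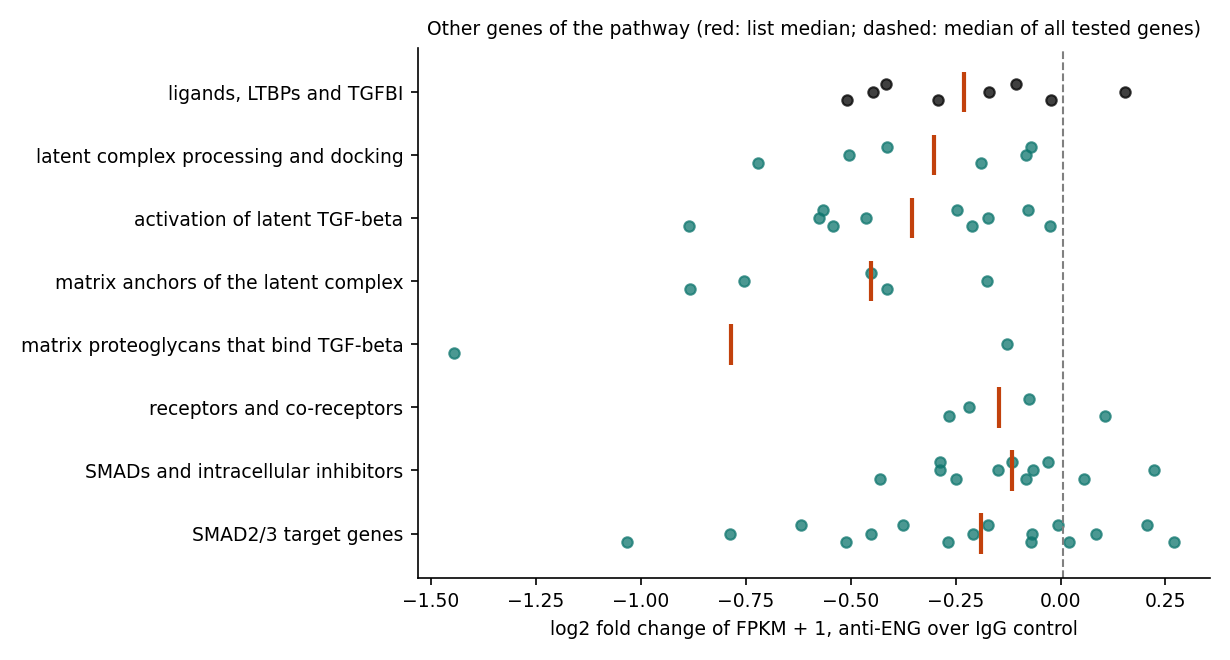
Log2 fold change of FPKM + 1, anti-ENG over IgG control, for the 8 members (black) and the 54 tested genes of the 7 pathway lists (green); red bars are list medians and the dashed line is the median of all tested genes (0.0065). Most points lie left of the dashed line, and no point belongs to a gene that passed the adjusted threshold.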

How the data were processed

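FPKM values were deposited for 23284 gene symbols in 6 tumours. The human build GRCh37 (hg19) is named per the submitters' processing notes, which also list Cuffnorm, Cufflinks 2.2.1 and TopHat2 2.0.10 beside Bowtie 1.0.0 and other tools. Not given in the sources used here are the scaling, the annotation, strand use and the treatment of mouse reads. The labels' protocols name 2 library kits and 2 instruments without assigning them, so any such difference cannot be told apart from treatment. Groups and replicate numbers come from the sample titles.

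The groups were compared with limma 3.58.1 (R 4.3.3, variance trend, no covariate) on log2(FPKM + 1) in the 12586 genes averaging 1 FPKM or more, which held 8 of 8 members. P-values are two-sided, with Benjamini-Hochberg adjustment over all 12586 genes. Shares and ratios within a tumour were compared by exact permutation (SciPy 1.17.1) and adjusted over 9 measures. The description codes share a number within IgG control 2 and 3 and within anti-ENG 1 and 2. Whether such tumours came from 1 animal is not stated, and p-values measure only the spread between these samples. The limma fit was tested on simulated data, and the permutation test only on small made-up examples. The members and lists were chosen with earlier results of these data known. Named genes were the members, ENG, the 3 genes of smallest p in each list and the 3 nearest profiles of TGFB1, TGFBI and the 2 other members of largest SD. The nearest profiles leave out unnamed loci, antisense transcripts, pseudogenes and small RNAs. FURIN, ITGB6, FBN1, ACVRL1 and the marker genes were named after their values were seen. Alternatives covered pseudocount, filter, scaling, variance model, weights, blocks and left-out tumours.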

Additional observations from a re-analysis of the deposited data

How the results depend on the processing

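No gene was called at an adjusted p under 0.05 in any alternative (0 genes), and the smallest adjusted p of a member was 0.377, without anti-ENG 2. Of 143 alternative member fold changes 139 kept their direction. This count includes the filter, variance trend and replicate block settings, which cannot change a fold change and so kept it by construction. The 4 that turned came from leaving out 1 tumour: TGFB2 ranged from -0.26 to 0.40, TGFB3 from -0.27 to 0.0995 and TGFBI from -0.17 to 0.17. The count of members whose groups do not overlap was 4 with equal sums (17.7% of all genes), 3 with upper quartile (16.2%), 3 with quantile normalization (14.6%), 2 with cyclic loess (14.7%), 5 after averaging tumours that share a code number (41.2% of all genes) and 1 to 4 without 1 tumour (23.2 to 33.2%). Equal sums moved the median of all genes to -0.10 and gave 168 higher and 1088 lower genes at an unadjusted p under 0.05, in place of 700 and 454. Of 91 alternative balance values 77 kept their direction, a count that includes the replicate block, which repeats the main difference by construction. Without 1 tumour the difference ranged from -0.193 to 1.20 percentage points for the TGFB2 share, -0.0804 to 1.44 for TGFB3, -1.36 to 1.99 for LTBP1, -4.83 to 1.365 for LTBP3 and -0.455 to 0.932 for LTBP4, and from -0.44 to 0.063 for the log2 carrier to ligand ratio. With IgG control 1 and anti-ENG 1 both left out, the differences were -0.620 for the LTBP1 share, 1.27 for LTBP3, -0.769 for LTBP4 and 0.086 for the ratio. After averaging tumours that share a code number, the LTBP1 difference was -0.0551. The causes were not tested.

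The title numbers gave no clear sign of pairing: deviations of same-numbered tumours correlated at -0.33, 0.19 and 0.037 across genes. Deviations were centred within each group of 3, so these correlations depend on one another and cannot show that pairing is absent. With the replicate block LTBP4 was at -0.45 (limma adjusted p = 0.641), and 0 genes were called. Tumours did not all correlate best with their own number, anti-ENG 1 having its highest correlation with IgG control 2 (0.29). Total depth is unknown, so no counting error can be given for low genes such as TGFB2.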
